A study of Drosophila melanogaster with 9 samples.

Results

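The cytosolic ribosomal protein genes are the genes whose symbol begins with RpL or RpS followed by a digit, A or P, the form used for proteins of the large (RpL) and small (RpS) subunits. This rule found 89 genes of the 13937 in the count table, 53 with large subunit names and 36 with small subunit names. RNA-Seq of poly(A)-selected RNA was done on *Drosophila* S2 cells, a cultured line of embryonic origin with hemocyte (blood cell) features. All cells were serum-depleted for 16 h. They were then exposed for 1 h to solvent only (vehicle) or to 1 of 2 peptides, DILP2 at 100 nM and DILP5 at 100 nM, and each group has 3 libraries called A, B and C. DILP2 and DILP5 are *Drosophila* insulin-like peptides, and both act through the one insulin receptor of the fly. The cells are 1 line, and the labels do not say whether libraries of a group came from separate cultures, so p-values measure the spread between these libraries, which may be technical.

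Each ribosome needs one copy of nearly every ribosomal protein, and the genes are therefore transcribed at similar and very high levels in most cells. In flies, losing one copy of many of these genes slows growth and gives short bristles, the Minute phenotype. Insulin signaling acts on this machinery largely through TOR. Most ribosomal protein mRNAs start with a tract of pyrimidines (a TOP motif) that places their translation under TOR control, and TOR also activates S6k, the kinase that phosphorylates RpS6. RNA-Seq of total poly(A) RNA measures mRNA level and not translation.

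The libraries held from 28365854 to 38557706 counts. Values are given as CPM, the counts scaled to a common total (1000000) after TMM normalization in edgeR. Tests are the quasi-likelihood test of edgeR on all 9 libraries, with Benjamini-Hochberg adjustment over the 8981 genes past its filter on low counts, and a gene is called when its adjusted p is under 0.05. Of the 89 members, 84 passed this filter. The hemocyte markers srp, Cg25C, vkg, crq and Pxn were above 10 CPM in S2 cells, while nimC1 and He were at most 1 CPM and Hml at 3.05 to 3.67 CPM. The summed level of the 8 hemocyte markers was 1673 to 1839 CPM in vehicle, 1690 to 1841 CPM with DILP2 and 1643 to 1822 CPM with DILP5. Each of the 5 germline, 4 fat body and 3 muscle markers was at or below 10 CPM, and of the 3 neuronal markers elav was at 68.4 CPM in vehicle.

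Ribosomal protein genes took a large part of what was sequenced in these cells. Their share of all counts was 10.3%, 10.2% and 9.89% in vehicle A, B and C. It was 11.0%, 10.6% and 10.4% with DILP2, and 11.3%, 10.7% and 10.2% with DILP5. The 3 DILP2 libraries all lay above the 3 vehicle libraries, whereas DILP5 C lay below vehicle A. The group means were 10.1% ± 0.212 in vehicle, 10.7% ± 0.320 with DILP2 and 10.8% ± 0.537 with DILP5 (SD, n = 3). The 95% Wilson interval of the smallest library, vehicle B, was 10.15% to 10.17%, so counting error was far below the spread between libraries. Shares are relative to all counts of a library, so they do not give the amount of this RNA per cell.

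Levels were compared between genes as CPM per kilobase of exon, with lengths from the BDGP6 annotation. RpLP2, an acidic protein of the stalk that recruits elongation factors, was the highest at 3043 ± 106 in vehicle (SD, n = 3). It was followed by RpL41, the shortest ribosomal protein, at 2998 ± 58.7, and the pair did not differ beyond their spread. Next came RpL6 at 2790 ± 53.3, RpL23 at 2578 ± 44.4 and RpS7 at 2499 ± 38.2. Without the minor paralogs and the genes named -like, 67 of 78 members lay within 2-fold of their median of 1239 CPM per kilobase. One of these 78 stood apart from the rest. RpL38, a large subunit protein, was at 23.0 ± 5.58 CPM per kilobase, while the next lowest of the 78, RpL34a, was at 513 ± 4.32. RpL38 was also the most variable of the 81 members above 10 CPM within each group, at 25.3, 27.7 and 16.9 CPM in vehicle A, B and C and 40.2 CPM in DILP2 A. These lengths come from the union of all annotated exons, which can be longer than the transcript in use, as may hold for RpL5 with 3835 bases.

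**Figure D1:**
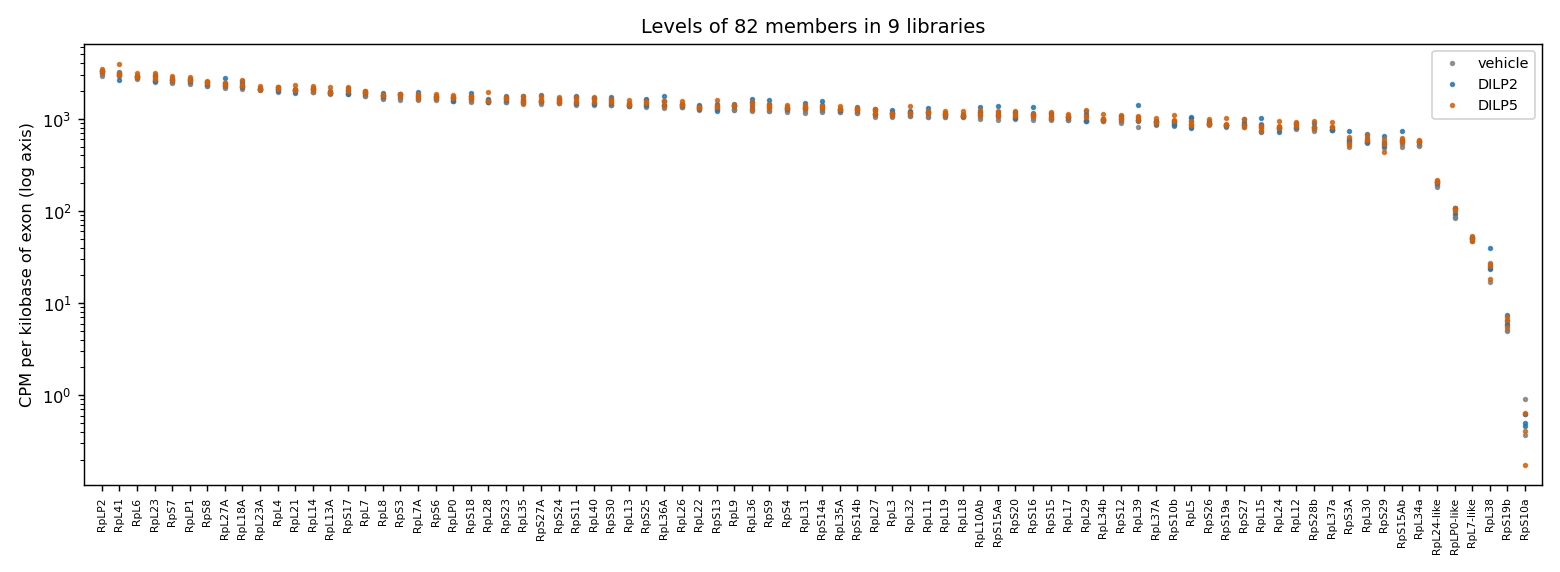
Level of 82 of the 84 members past the count filter as CPM per kilobase of exon (log axis), ordered by their vehicle mean, with one point per library (grey vehicle, blue DILP2, orange DILP5). Most members form a plateau between 513 and 3043, and RpL24-like, RpLP0-like, RpL7-like, RpL38, RpS19b and RpS10a fall below it.

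RpL32, known as RP49, is a large subunit protein whose mRNA the study used as the reference in its qRT-PCR. It lies on chromosome 3R, and the primer pair is shown because any change in this gene would enter every value normalized to it.
RP49 forward: aagaagcgcaccaagcacttcatc
RP49 reverse: tctgttgtcgatacccttgggctt
RpL32 was at 876, 858 and 865 CPM in vehicle A, B and C. It was at 978, 918 and 951 CPM with DILP2 and at 1105, 929 and 926 CPM with DILP5, so every DILP library lay above every vehicle library. The log2 fold change was 0.13 ± 0.064 with DILP2 (SE; adjusted p = 0.226, edgeR) and 0.19 ± 0.064 with DILP5 (adjusted p = 0.0766), and neither passed the test.

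Several ribosomal proteins of the fly are encoded by more than one gene, and S2 cells expressed most of these sets unequally. RpS19b, RpS10a and RpL22-like, known mainly from the germ line, were nearly silent beside their partners. RpS19b made up 0.622% ± 0.0380 of its pair per kilobase in vehicle (SD, n = 3) and RpS10a 0.0723% ± 0.0295. RpL22-like had 35 counts over the 9 libraries, beside 450567 for RpL22. RpL37b had 17 counts and RpS28a 2. RpL10Aa and RpS28-like had 0 counts of 309672640, which allows a level of up to 0.00969 CPM (3 counts over all libraries, counting error only). These 5 genes did not pass the filter and were not tested.

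Other sets were shared out more evenly. RpS14a and RpS14b, neighbours on the X chromosome that encode the same protein, were at 1215 and 1171 CPM per kilobase in vehicle, and RpS14b made up 46.4% to 49.8% of the pair across the 9 libraries. RpS15Ab made up 33.2% to 35.0% of its pair with RpS15Aa, and RpL34a 34.1% to 36.9% of its pair with RpL34b. How reads that match more than one copy were counted is not stated for these data, so the division within such near-identical sets is uncertain. RpL24-like, RpLP0-like and RpL7-like are related to yeast factors that assemble the large subunit (Rlp24, Mrt4 and Rlp7) and are not thought to be ribosome components. They were at 187, 87.1 and 50.3 CPM per kilobase in vehicle, below all partners.

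Ribosomal protein mRNAs were slightly higher after 1 h of either peptide. Relative to the vehicle mean, the median of the 84 members was 0.17, 0.078 and 0.11 on the log2 scale in DILP2 A, B and C. It was 0.20, 0.11 and 0.074 in DILP5 A, B and C, and 0.020, -0.00091 and -0.013 in vehicle A, B and C. All 6 DILP libraries thus lay above the 3 vehicle libraries, and the A library was the highest of each group. From 74 to 77 members in each DILP2 library, and from 75 to 81 in each DILP5 library, were above their vehicle mean. In the fit, the median log2 fold change of the members was 0.13 with DILP2 (1.09-fold) and 0.14 with DILP5 (1.10-fold). That of all 8981 genes was -0.0022 and -0.0019. For 279 other genes inside the members' main range of length and level, given below, it was 0.083 and 0.10. Of the 84 members, 78 were above 0 with DILP2 and 81 with DILP5.

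**Figure D2:**
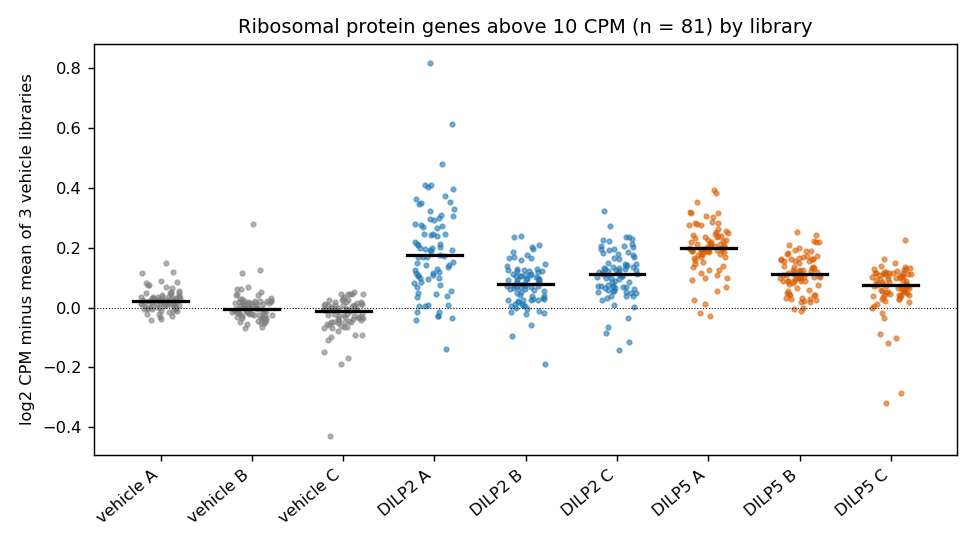
Difference in log2 CPM from the mean of the 3 vehicle libraries for the 81 members above 10 CPM in vehicle, one point per member and one column per library, with the median as a bar. The points of all 6 DILP libraries sit mostly above 0, and they are spread most widely in DILP2 A.

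Most single members did not pass the adjusted threshold. With DILP2, 14 of 84 members were called higher (16.7%), against 5.33% of all genes tested, and 0 were called lower, against 5.59% of all genes. With an unadjusted p under 0.05 there were 40 members (47.6%), against 25.2% of all genes. Every DILP2 library lay above every vehicle library for 47 members, 56.0% against 14.3% of all genes. With DILP5, 9 members were called higher (10.7%), against 6.28% of all genes, and 0 lower, against 6.78%. An unadjusted p under 0.05 was reached by 49 members (58.3%), against 27.5% of all genes, and the 3 DILP5 libraries lay above the 3 vehicle libraries for 57 members, 67.9% against 16.2% of all genes. Both comparisons share the vehicle libraries and are not independent. DESeq2 called 27 of 87 members higher with DILP2 (31.0%) and 29 with DILP5 (33.3%), against 4.46% and 5.24% of the 13105 genes in its fit. Of the 279 other genes in the members' main range, it called 18.6% and 25.4% higher.

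Among the members called with DILP2 was RpS3, which lies at the mRNA entry channel of the small subunit and also has a role in DNA repair. It was at 1919, 1811 and 1889 CPM in vehicle A, B and C and at 2109, 2097 and 2069 CPM with DILP2. With DILP5 it was at 2128, 2083 and 2029 CPM. Neither peptide group overlapped vehicle, and the log2 fold change was 0.16 ± 0.042 with DILP2 (adjusted p = 0.0312, edgeR) and 0.15 ± 0.041 with DILP5 (adjusted p = 0.0337). RpS3, RpL9, RpL34a and RpLP0-like were among the 5 members called with both peptides. RpL9 of the large subunit changed by 0.15 with each peptide, and RpL34a by 0.13 with DILP2 and 0.16 with DILP5. RpLP0-like, the relative of the yeast assembly factor Mrt4, was at 80.4, 85.0 and 82.4 CPM in vehicle. It was at 102, 89.2 and 103 CPM with DILP2 and at 102, 96.4 and 96.6 CPM with DILP5, and its change was 0.25 ± 0.056 with each.

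The 9 members called with DILP2 and not with DILP5 included 6 small subunit genes. RpS9 rose by 0.25, RpS16 by 0.23, RpS14a by 0.23, RpS30 by 0.20, RpS18 by 0.19 and RpS14b by 0.15 on the log2 scale. With DILP5 these genes also rose, by 0.15, 0.12, 0.15, 0.16, 0.13 and 0.13 in the same order. For DILP5 over DILP2, 0 members were called, so calls with a single peptide do not show a difference between the peptides. RpS16 and RpS18 belong to the head of the small subunit and RpS14 to its platform. The large subunit genes were RpL36, RpL10Ab and RpL11, which were at 0.18, 0.14 and 0.15 with DILP5. RpL36 had the largest change of the 14, from 880, 864 and 829 CPM in vehicle to 1138, 936 and 1034 CPM with DILP2 (0.27 ± 0.073, adjusted p = 0.0364, edgeR). RpL10Ab, a protein of the L1 stalk beside the tRNA exit site, rose from 1058, 999 and 956 CPM to 1298, 1149 and 1138 CPM (0.25 ± 0.065, adjusted p = 0.0313). In both, DILP2 A was the highest library. By name, 8 of the 34 small subunit genes tested and 6 of the 50 large subunit genes were called with DILP2, with medians of 0.15 and 0.12. The 6 include RpLP0-like, which is not thought to be a ribosome component.

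The 4 members called with DILP5 and not with DILP2 were RpL7, RpL12, RpL17 and RpL24-like. RpL12 lies at the base of the stalk and RpL17 at the exit of the peptide tunnel. RpL17 was at 1115, 1080 and 1091 CPM in vehicle and at 1265, 1180 and 1192 CPM with DILP5 (0.15 ± 0.041, adjusted p = 0.0353, edgeR). RpL24-like was at 147, 146 and 140 CPM in vehicle and at 168, 164 and 158 CPM with DILP5 (0.18 ± 0.039, adjusted p = 0.0136), and the groups did not overlap. RpL7 changed by 0.14 and RpL12 by 0.17. With DILP2, RpL7 was at 0.13, RpL12 at 0.15, RpL17 at 0.10 and RpL24-like at 0.13. With DILP5, 7 of 50 genes with large subunit names and 2 of 34 with small subunit names were called, with medians of 0.13 and 0.14. The 7 include RpL24-like and RpLP0-like, which are not thought to be ribosome components. These had the lowest adjusted p of the DILP5 calls (0.0136 and 0.0138, edgeR). Exons of RpL12 and RpL39 overlap on opposite strands, as do those of 25 members in all and another gene, and 10 members overlap another gene on their own strand. Use of strand in counting is not stated, so reads in such overlaps cannot be assigned to one gene. RpS9, RpL10Ab, RpL12, RpL24-like and RpLP0-like are the called members concerned, all with the other gene on the opposite strand.

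**Figure D3:**
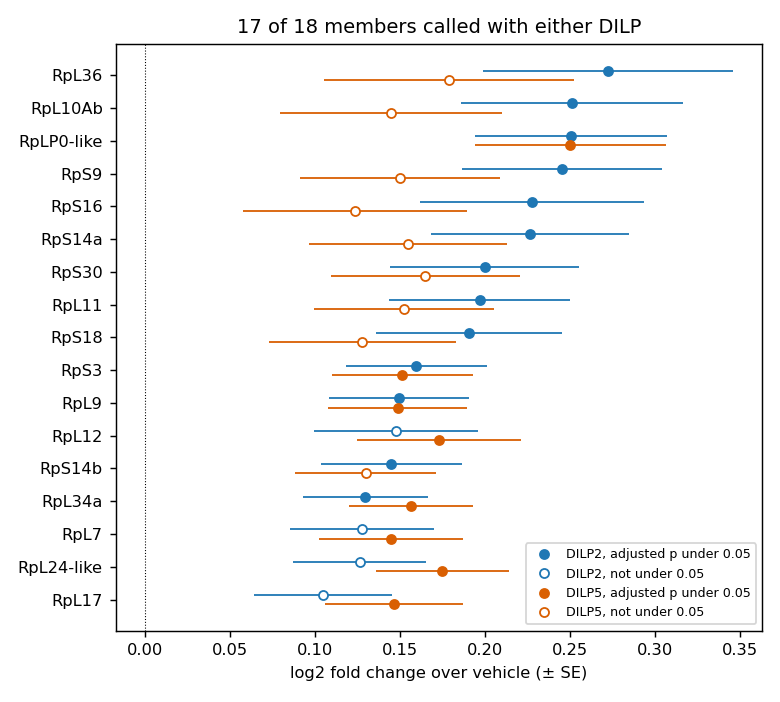
Log2 fold change over vehicle with its standard error for 17 of the 18 members called with either peptide (blue DILP2, orange DILP5, filled where the adjusted p is under 0.05). All 34 values lie above 0, from 0.10 to 0.27, and the intervals of both peptides overlap for each gene.

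Calls depended on single libraries. Of the 14 calls with DILP2, 0 held in each of 9 fits that left out one library, and single members held in 2 to 6 of them. The number called with DILP2 was 0 without DILP2 A or without vehicle C, 1 without vehicle B, 3 without vehicle A, 5 without DILP5 B and 9 without DILP2 B. Calls over all genes fell in these fits as well, from 479 higher with all 9 libraries. They were 272 without DILP2 A, 266 without vehicle C and 352 without vehicle B. Without vehicle A, DILP5 B or DILP2 B they were 248, 402 and 344. Of the 9 calls with DILP5, 0 held in every such fit, and single members held in 2 to 7. The number was 1 without DILP5 A or without vehicle C, 2 without DILP5 B or without vehicle A, 3 without vehicle B and 14 without DILP5 C. Over all genes, 564 were called higher with DILP5 with all 9 libraries. There were 393 without DILP5 A, 321 without vehicle C and 322 without DILP5 B. Without vehicle A, vehicle B or DILP5 C there were 296, 417 and 539. The median over the members moved less, from 0.10 to 0.15 with DILP2 and from 0.098 to 0.16 with DILP5. In the fit of all 9 libraries, 0 members had an adjusted p under 0.01 with either peptide (edgeR). Of all genes, 2.22% with DILP2 and 2.77% with DILP5 were called higher at that threshold.

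The members at the ends of the range were mostly those with few counts or wide spread. With DILP2 the largest values were those of RpL38 (0.34), RpS19b (0.31), RpS15Ab (0.27), RpL36 (0.27) and RpL39 (0.26), and RpL36 alone of these was called. Among the smallest were RpS10a (-0.26), RpL24 (-0.025), RpL7-like (-0.017) and RpL41 (-0.012). With DILP5 the largest were RpS19b (0.28), RpLP0-like (0.25), RpL29 (0.22), RpS10b (0.19) and RpL32 (0.19), and RpLP0-like alone of these was called. The smallest were RpS10a (-0.62), RpS29 (-0.022), RpL15 (-0.0061), RpL7-like (0.0026) and RpS3A (0.013). RpS10a had 97 counts over the 9 libraries and RpS19b 1256.

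By role, the stalk proteins RpLP0, RpLP1 and RpLP2 were at 0.060, 0.11 and 0.12 on the log2 scale with DILP2 and at 0.14, 0.15 and 0.14 with DILP5, and none passed the test. RpL5 and RpL11 carry the 5S rRNA into the large subunit. RpL11 was called with DILP2 (0.20 ± 0.053, adjusted p = 0.0366, edgeR) and was at 0.15 with DILP5 (adjusted p = 0.0843). RpL5 was at 0.14 ± 0.093 and 0.041 ± 0.093, and its DILP2 libraries spread from 3083 to 4010 CPM. RpS27A and RpL40 are made as fusions to ubiquitin. They were at 0.13 and 0.14 with DILP2 and at 0.13 and 0.15 with DILP5, and neither passed.

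RpS6, the target of S6k, was at 1973, 1897 and 1942 CPM in vehicle, at 2039, 2115 and 2056 CPM with DILP2 and at 2216, 2110 and 2026 CPM with DILP5. Neither peptide group overlapped vehicle, and the changes of 0.096 ± 0.045 (adjusted p = 0.214, edgeR) and 0.13 ± 0.045 (adjusted p = 0.0864) did not pass. RpS12, which in flies is needed for the elimination of Minute cells by their neighbours, was at 0.15 with both peptides. RpS23 of the decoding centre was at 0.15 and 0.14. RpL3, near the site of peptide bond formation, was at 0.15 with DILP2 and 0.056 with DILP5. RpL4 and RpL39 of the peptide tunnel were at 0.043 and 0.26 with DILP2 and at 0.089 and 0.15 with DILP5. RpL22 was at 0.075 and 0.048. None of these passed the test with either peptide.

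Between the peptides no member passed the test. For DILP5 over DILP2, 0 of 84 members were called in either direction and 0 of all genes (0%), at the same dose and time, with 208 of all genes at an unadjusted p under 0.05. One member, RpL24, had an unadjusted p under 0.05 in the edgeR fit. DESeq2 called 0 as well, with 2 members at an unadjusted p under 0.05. RpL24 was at 906, 1001 and 1031 CPM with DILP2 and at 1186, 1018 and 1071 CPM with DILP5, and the groups overlapped. Its log2 difference was 0.16 (95% interval 0.017 to 0.30). The values of RpL41 (0.17) and RpL24 were among the largest, and the 3 smallest were those of RpS10a (-0.35), RpL38 (-0.32) and RpS3A (-0.16). The median was 0.0032. For the 78 members above 100 CPM in vehicle, the 95% intervals reached from -0.40 to 0.38, so differences of this size in single members were not excluded by these libraries.

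Within DILP2 A the members moved unequally. Over the 81 members above 10 CPM, DILP2 A departed from the mean of DILP2 B and C by a median of 0.073 on the log2 scale, with an SD of 0.14 over members, the widest among the 9 libraries. RpL38 (0.73), RpL39 (0.57), RpL15 (0.38), RpS3A (0.36) and RpS15Ab (0.31) were the most above. RpL24 (-0.17), RpLP0 (-0.13), RpL4 (-0.13), RpS10b (-0.12) and RpL37a (-0.092) were the most below. These genes were chosen after their values were seen. RpL39 itself was at 408, 271 and 280 CPM in DILP2 A, B and C. RpS3A, on chromosome 4, was at 996, 765 and 791 CPM. Their changes with DILP2, 0.26 ± 0.13 and 0.17 ± 0.11, did not pass the test and were 0.043 and 0.042 without DILP2 A.

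Ribosomal protein genes are short and abundant, so the shift was set beside other genes in the same range of length and level. Over the full range of the members (288 to 3835 bases), 6539 other genes had medians of 0.00995 with DILP2 and 0.018 with DILP5. That range is set by its outermost members. In the middle 90% of both measures (536 to 1541 bases, log2 CPM of 6.50 to 11.5), a range chosen after the data were seen, 279 other genes had medians of 0.083 and 0.10. The 66 members inside this range had medians of 0.13 and 0.14. The other genes only had to lie inside the range and were not matched to the members in level. Over all other genes tested, the change rose with level (Spearman rho 0.19 with DILP2 and 0.21 with DILP5). Among the members it fell with level (-0.25 and -0.22). The gap between the medians may therefore hold a difference in level, which was not tested. Of the 279 genes, 35 (12.5%) were called higher with DILP2 and 45 (16.1%) with DILP5. Of the 66 members in the same range, 21.2% were called with DILP2 and 13.6% with DILP5, above the share of the other genes with DILP2 and below it with DILP5. All 3 DILP libraries lay above the vehicle libraries for 36.6% and 44.1% of these genes, against 63.6% and 77.3% of the 66 members.

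Among other genes at the members' level the change fell with length. The median was 0.14 with DILP2 and 0.12 with DILP5 for the 11 genes of up to 600 bases, and 0.094 and 0.10 for the 87 genes of 600 to 1000 bases. It was -0.026 and -0.036 for the 898 genes of more than 4000 bases. The members of up to 600 bases (9 genes) had medians of 0.14 and 0.15, and those of 600 to 1000 bases (42 genes) 0.14 and 0.14. When the trend of each library on length and level, fitted on genes other than the members, was taken out, the median of the members was -0.034 with DILP2 and -0.051 with DILP5. That of the 279 genes was then -0.027 and -0.032. In this fit 0 members were called higher, and RpL41 was called lower with DILP2 (-0.23, adjusted p = 0.0106, edgeR). With the trend on length alone taken out, the medians were 0.070 and 0.073, beside 0.054 and 0.060 for the 279 genes, and 7 and 3 members were called higher. Whether the trend is technical was not tested.

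**Figure D4:**
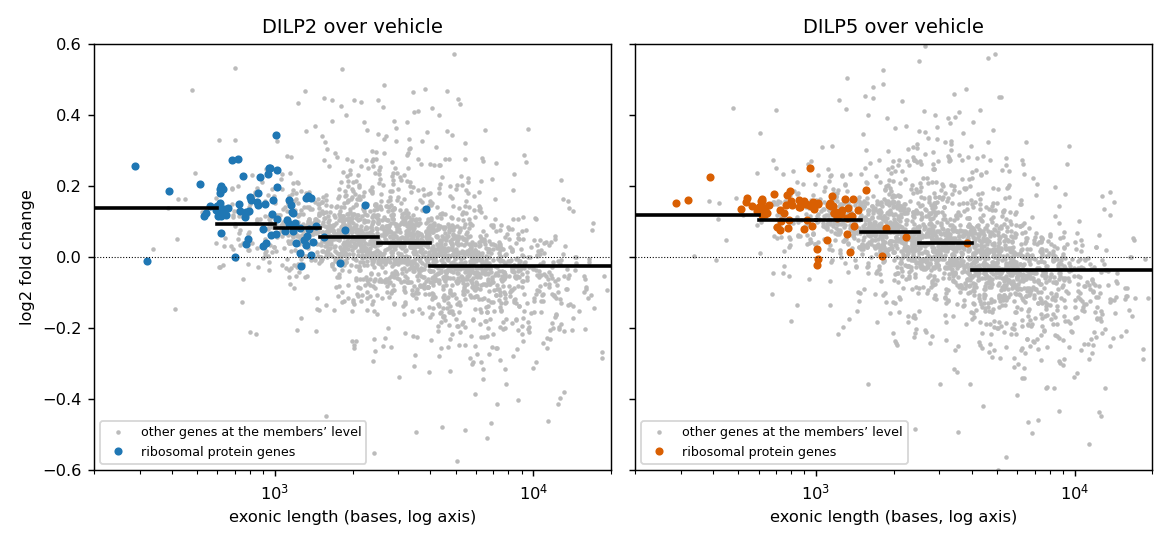
Log2 fold change over vehicle against exonic length (log axis) for the 81 members above 10 CPM on average (coloured) and 2268 other genes at the members' level (grey), with black bars for the median of the other genes in classes of length. The bars fall from left to right and pass below 0 above 4000 bases, and 25 grey genes with DILP2 and 26 with DILP5 lie beyond the axes.

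**Figure D5:**
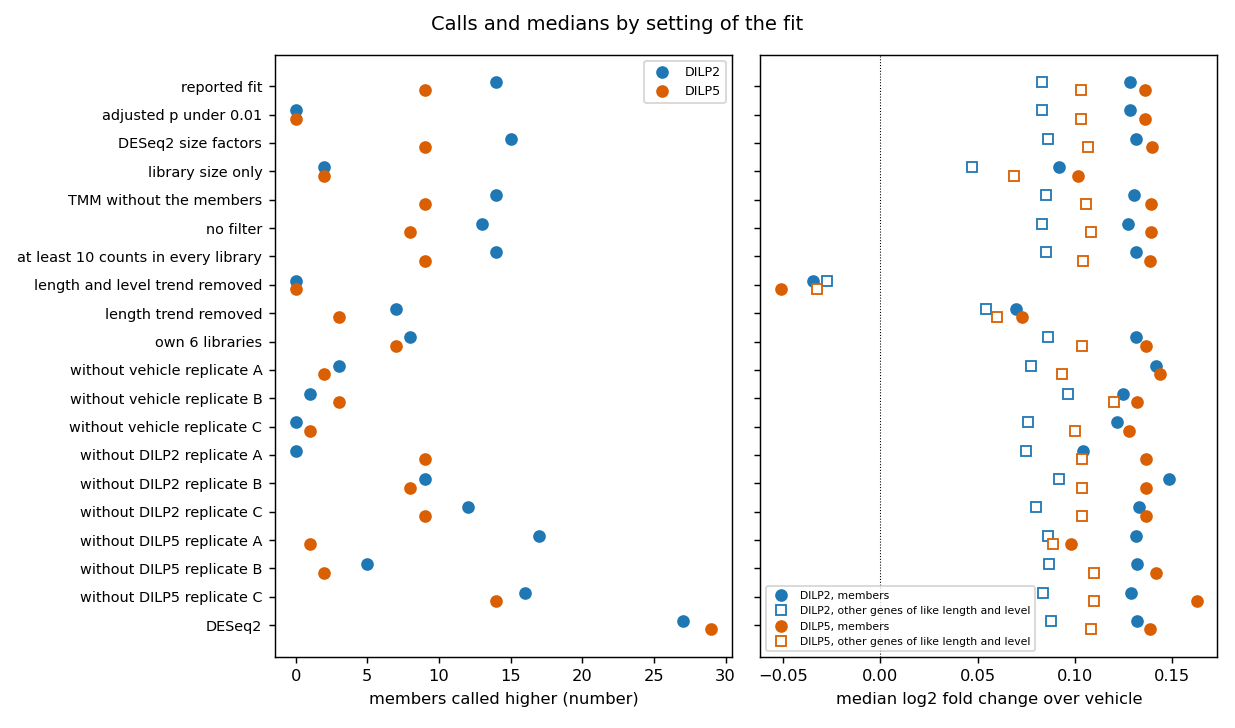
Members called higher (left) and median log2 fold change (right) under settings of the fit without a replicate block. The right panel holds the members and the 279 other genes inside the members' main range of length and level. Blue marks DILP2 and orange DILP5. Counts under these settings range from 0 to 29, and both medians are below 0 where the trend on length and level is taken out.

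Some ribosomal proteins carry other names and were not members. Of sop (RpS2), sta (RpSA), oho23B (RpS21), Qm (RpL10) and Rack1, sop was called higher with DILP2 (0.16 ± 0.040, adjusted p = 0.0252, edgeR) and with DILP5 (0.16 ± 0.040, adjusted p = 0.0249). The other 4 were from 0.063 to 0.21 with DILP2 and from 0.013 to 0.18 with DILP5 and did not pass. The most similar group were the 71 mitochondrial ribosomal protein genes, which encode the ribosome of the organelle. Of these, 8 were called higher with each peptide (11.3%) and 0 lower, with medians of 0.12 and 0.13, close to the medians of the cytosolic genes. The share called higher was 5.33% and 6.28% over all genes, and 12.5% and 16.1% over the 279 genes above. Called lower were 5.59% and 6.78% of all genes.

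A list of 15 genes, mostly of the translation machinery and regarded as having TOP-like mRNAs, again held Rack1. Of these 15, 3 were called higher with DILP2 (20.0%) and 4 with DILP5 (26.7%), against 5.33% and 6.28% of all genes. None of the 15 was called lower, against 5.59% and 6.78% of all genes, and the medians were 0.059 and 0.029. NHP2, a protein of the RNPs that modify rRNA, changed most (0.37 and 0.40). NHP2, the histone chaperone Nap1 and the elongation factor subunit eEF1delta were called with both peptides, and Ef1beta with DILP5 (0.16). NHP2 and Nap1 are not translation factors, so most of the DILP2 calls in this list lie outside the translation machinery. Of 15 regulators of ribosomal protein genes and mRNAs, 0 were called higher and 2 lower with each peptide. Of all genes, 5.33% were called higher and 5.59% lower with DILP2, and 6.28% and 6.78% with DILP5. The 2 regulators called lower were Thor, the 4E-BP that holds back translation, at -0.76 and -0.72, and larp at -0.17 and -0.16. In mammals larp (LARP1) binds TOP motifs. The median of the 15 was -0.060 and -0.066. The Myc gene dm was at 0.29 (adjusted p = 0.0965, edgeR) and 0.18 (adjusted p = 0.290) and did not pass.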

How the data were processed

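RNA-Seq of poly(A) RNA from *Drosophila* S2 cells was compared in 3 groups of 3 libraries. The authors aligned reads to dm3 (Tophat and Bowtie), assigned them to genes (easyRNASeq) and deposited one column of raw counts per library, without normalization. Software versions, the annotation release, the use of strand and the fate of multiply mapping reads are not given in the sources used here. Their notes also name edgeR. All 9 columns were mapped to samples by name.

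The counts were fitted in R 4.3.3 with edgeR 4.0.16 (which loads limma 3.58.1), DESeq2 1.42.0 served as an alternative, and figures were drawn with matplotlib 3.10.9. The reported fit used TMM normalization, the default filter, the quasi-likelihood test and 9 libraries with no replicate block. A standard error is the size of the log2 fold change over the root of its F statistic. Exonic lengths, chromosomes and overlaps came from BDGP6, which is not the build of the authors, so no coordinates are given. Of 13937 identifiers, 13389 matched by identifier and 202 by symbol, and all 89 members had a length. Trends on length and level were loess curves (span 0.5) per library, fitted on genes other than the members. The calling of genes was tried on simulated data with changes larger than the median change of the members. That trial therefore does not cover changes as small as theirs.

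Named genes are, for each peptide over vehicle, the 5 largest and 5 smallest changes among tested members, for DILP5 over DILP2 the 3 at each end, called members, those with the roles given, all paralogs, the extremes of level and those under the filter. The members and lists were chosen with earlier results of these data known. Alternatives were DESeq2, other normalizations, filters and thresholds, 6-library fits, the replicate block, trend removal and leaving out each library. Promoter and protein sequences were not used here. One pair of members is counted in all totals, but its single-gene results are not reported here.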

Additional observations from a re-analysis of the deposited data

How the results depend on the processing

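The number of members called moved with most choices, while for each peptide over vehicle the median over the members kept its direction under all alternatives other than the removal of the trend on length and level. With DILP2 and DILP5 in turn, the numbers called were 27 and 29 by DESeq2, 2 and 2 with library size only, 0 and 0 at an adjusted p under 0.01, 1 (lower) and 0 with the trend on length and level taken out, and 7 and 3 with the trend on length alone taken out. With library size only, 2.38% of the members were called higher with each peptide, against 3.42% and 4.08% of all genes. With the trend on length alone taken out, it was 8.33% and 3.57% of the members, against 6.58% and 7.08% of all genes. Of all genes, 4.49% and 5.03% were called higher with the trend on length and level taken out, and 2.22% and 2.77% at the stricter threshold. On its own 6 libraries, DILP2 gave 8 calls and DILP5 gave 7. Leaving out each library gave 0 to 17 with DILP2 and 1 to 14 with DILP5. With DILP2 the median fell from 0.13 to -0.034 with the trend on length and level removed, and to 0.070 with that on length alone. With DILP5 it fell from 0.14 to -0.051 and to 0.073 in turn. For DILP5 over DILP2 the median lay near 0 and changed sign, from -0.034 to 0.034 over the fits that left out a library. The median of other genes over the full range of the members was -0.027 and -0.017 with library size only. It was -0.0064 and -0.0100 with both trends taken out, and 0.0010 and 0.0016 with the trend on length alone. In the middle 90% of that range it was 0.083 and 0.10.

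With the replicate block, 40 members were called with DILP2 (47.6%) and 46 with DILP5 (54.8%), and 0 for DILP5 over DILP2. Of all genes, 9.58% and 10.9% were called higher with DILP2 and DILP5. Of the 279 other genes in the members' main range of length and level, 28.0% and 37.6% were. The labels do not say that the letters pair the libraries, and the reported fit did not use them. Correlations of the deviations of same-letter libraries went from -0.035 to 0.35 over 9 pairs, beside -0.29 to 0.19 over 18 pairs of other letters. They were 0.14 to 0.16 between the A libraries, 0.29 to 0.35 between the C libraries and -0.035 to 0.097 between the B libraries. Whether the letters mark paired libraries was therefore not settled. A library correlated best with its own letter in 11 of 18 combinations of a library and another group. This count was not set beside the number that unpaired letters would give, so it does not decide on pairing.

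With the trend on length and level taken out, 56 of 84 members were not above 0 with DILP2 and 77 with DILP5. Among the named members, values with DILP2 went below 0 for RpL15 (-0.035), RpL17 (-0.034), RpL22 (-0.066), RpL24-like (-0.014), RpL29 (-0.019), RpL32 (-0.029), RpL34a (-0.039), RpL34b (-0.11), RpL37a (-0.080), RpL4 (-0.089), RpL40 (-0.036), RpL7 (-0.013), RpL9 (-0.0026), RpLP0 (-0.073), RpLP1 (-0.051), RpLP2 (-0.061), RpS10b (-0.063), RpS12 (-0.022), RpS14b (-0.031), RpS19a (-0.12), RpS23 (-0.010), RpS27A (-0.046), RpS28b (-0.023), RpS29 (-0.075) and RpS6 (-0.043). With DILP5 this held for RpL10Ab (-0.031), RpL11 (-0.020), RpL17 (-0.018), RpL22 (-0.12), RpL24 (-0.022), RpL24-like (-0.00051), RpL29 (-0.036), RpL3 (-0.068), RpL32 (-0.0099), RpL34a (-0.054), RpL34b (-0.077), RpL36 (-0.030), RpL38 (-0.039), RpL39 (-0.12), RpL4 (-0.064), RpL40 (-0.065), RpL41 (-0.12), RpL5 (-0.052), RpL7 (-0.020), RpL7-like (-0.056), RpL9 (-0.034), RpLP0 (-0.017), RpLP1 (-0.055), RpLP2 (-0.080), RpS12 (-0.072), RpS14a (-0.031), RpS14b (-0.089), RpS15Aa (-0.031), RpS15Ab (-0.063), RpS16 (-0.073), RpS18 (-0.089), RpS19a (-0.035), RpS23 (-0.048), RpS27A (-0.090), RpS28b (-0.022), RpS3 (-0.015), RpS30 (-0.051), RpS3A (-0.13), RpS6 (-0.035) and RpS9 (-0.023). With the trend on length alone taken out, the values of RpL34b (-0.0063) and RpS19a (-0.0084) with DILP2, and of RpL38 (-0.027), RpL39 (-0.011), RpL41 (-0.011), RpL7-like (-4.6e-05) and RpS3A (-0.0088) with DILP5, went below 0. With library size only, RpS19a (-0.026) did so with DILP2 and RpL38 (-0.013), RpL7-like (-0.032) and RpS3A (-0.022) with DILP5. The cause was not tested.

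Leaving out one library turned the direction of members near 0. With DILP2 the ranges were -0.027 to 0.22 for RpL15, -0.063 to 0.029 for RpL24, -0.071 to 0.068 for RpL41, -0.045 to 0.021 for RpL7-like, -0.56 to 0.12 for RpS10a, -0.0028 to 0.023 for RpS19a and -0.045 to 0.13 for RpS29. With DILP5 they were -0.056 to 0.056 for RpL15, -0.16 to 0.18 for RpL38, -0.0047 to 0.10 for RpL5, -0.046 to 0.047 for RpL7-like, -0.14 to 0.095 for RpS29 and -0.068 to 0.072 for RpS3A. For DILP5 over DILP2, RpS10a went from -0.85 to 0.0066. Of all values of the named members under an alternative, 1660 kept their direction and side of the threshold, 185 lost and 72 gained a call, and 100 changed sign.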
